A study of Rattus norvegicus with 6 samples.

Results

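The BCL2 family genes are the genes that set whether the mitochondrial route of apoptosis is held back or set off. Those taken as the subject here were listed by symbol, the survival genes Bcl2, Bcl2l1 and Mcl1, the effector genes Bax and Bak1, and the BH3-only genes Bid, Bcl2l11, Bad, Bbc3 and Pmaip1. The count tables were searched for these symbols, and 8 of the 10 were measured among 21857 genes. All 8 passed the filter on low counts that left 12941 genes for testing. Mcl1 and Bbc3 are not analysed here.

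NRCFs, neonatal cardiac fibroblasts taken from rats within 3 days of birth and cultured, were profiled by RNA-seq. The Vector group (3 libraries, genotype label WT) received an empty plasmid, and the other group (3 libraries, genotype label FTO overexpression) received a plasmid with FTO, the demethylase that takes the m6A mark off RNA. The design text names Sprague-Dawley rats, the strain label reads Noway, and neither a batch nor the collection time is in the labels, although the methods of the study fix a time after transfection. The labels do not say whether the 3 libraries of a group came from separate cultures, so p-values measure the spread between these libraries, which may be technical.

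Outer membrane permeabilization of mitochondria is carried out by BAX and BAK, which release cytochrome c into the cytosol, where it meets APAF1 and caspase-9. BCL2, BCL-XL (from Bcl2l1) and MCL1 hold these effectors in check, and the BH3-only proteins bind the survival proteins or the effectors themselves in response to stress. In cardiac fibroblasts this balance bears on how long the cells persist in a scar. Much of the control acts on the proteins by cleavage, phosphorylation and turnover, which RNA counts do not show.

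The libraries held 13178952 to 17857999 counts. Fto itself lay at 87.4 to 89.6 CPM (counts scaled by library total and TMM factor) in the Vector libraries and at 90.8 to 93.2 CPM in the libraries labelled FTO, a log2 fold change of 0.06 (SE 0.0468) that did not pass the test (adjusted p = 0.239, edgeR). Directions below are therefore those of the libraries labelled FTO against Vector. Of 8 fibroblast markers, 5 were higher and 3 lower, with summed levels of 37888 to 38637 CPM in Vector and 20079 to 21142 CPM in the libraries labelled FTO. Most of that sum came from the collagen genes Col1a1 (mean 25809 CPM in Vector, 8268 CPM in the libraries labelled FTO) and Col3a1 (10699 and 3338 CPM), both among the 3 that fell. Among the 5 that rose, Dcn went from 47.0 to 5611 CPM, Lum from 48.7 to 432 CPM and Pdgfra from 173 to 976 CPM. The sum therefore does not stand for the list as a whole. Markers of other cells moved too, in a series where 65.9% of all genes tested passed the test (33.2% higher and 32.8% lower). Of 8 cardiomyocyte markers, 7 were higher and 1 lower (1463 to 1492 CPM against 2189 to 2224 CPM), and of 8 macrophage markers 1 was higher and 7 lower (634 to 656 CPM against 185 to 212 CPM). Of 8 endothelial markers 6 were tested, of which 4 were higher and 1 lower (117 to 122 CPM against 115 to 120 CPM, sums that overlap). Most of that sum came from Flt1, which fell from 94.3 to 63.5 CPM, whereas Kdr rose from 1.87 to 8.21 CPM and Tek from 11.5 to 25.8 CPM. Of 8 mural cell markers 7 were tested, of which 3 were higher and 4 lower (1587 to 1648 CPM against 1314 to 1400 CPM). Within the mural list, Kcnj8 rose from 2.06 to 60.8 CPM and Notch3 fell from 226 to 14.9 CPM. The share of counts from mitochondrially encoded genes was 4.82 to 5.04% in Vector and 3.80 to 4.27% in the libraries labelled FTO, without overlap, and its part in the results below was not tested. In bulk RNA, fewer cells of a type and less RNA per cell cannot be told apart.

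Across the 8 members, Bid and Bcl2l11 rose, Bcl2 and Pmaip1 fell, Bcl2l1 and Bad moved by small amounts in opposite directions, and neither effector gene passed the test. Taking the edgeR quasi-likelihood test at an adjusted p-value of 0.05, 6 of the 8 were called, 3 higher and 3 lower. Over all genes tested, 65.9% were called, 33.2% higher and 32.8% lower, so the share among the members is near that of the whole table. At the threshold named by the study, a log2 fold change of at least 1 in either direction with a p-value under 0.05, taken here as unadjusted, 2 members were called, Bid as higher and Bcl2 as lower. That threshold called 19.6% of all genes, 10.4% as higher and 9.27% as lower. In 6 members, and in 70.3% of all genes, every CPM of one group lay above every CPM of the other. The median log2 fold change was -0.03 over the 8 members and 0.00 over all genes.

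**Figure D1:**
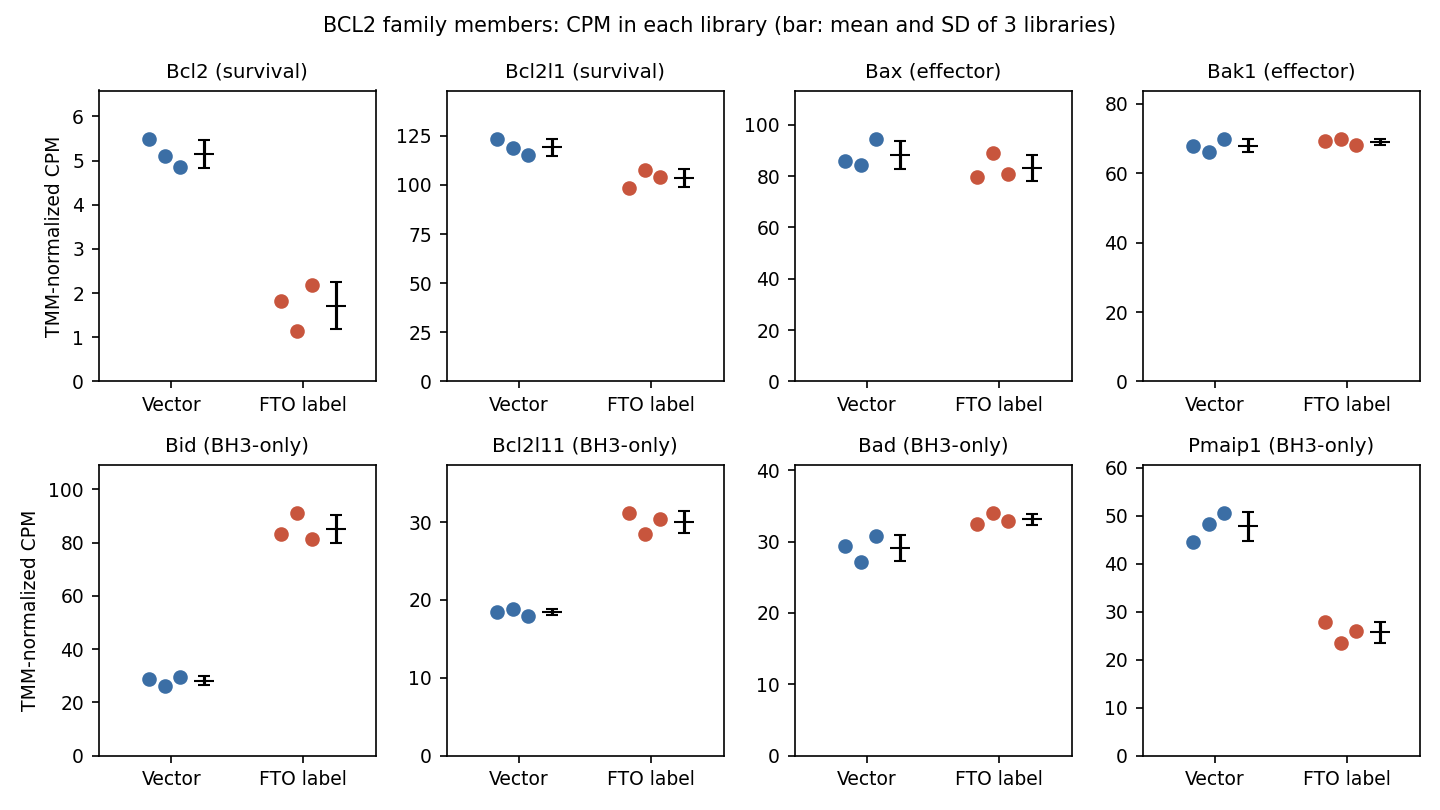
CPM (y axis, TMM-normalized, from 0) of the 8 measured members in each library, with Vector in blue and the libraries labelled FTO in red. Each point is a library and each bar the mean and SD of 3 libraries. The groups are apart for Bcl2, Bcl2l1, Bid, Bcl2l11, Bad and Pmaip1, and they overlap for Bax and Bak1.

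The 250 bases before the transcription start were taken from RefSeq (build GRCr8) for 7 of the 8 members, 10 windows in all, as Bcl2l1 has 4. No window was given for Bax. The 210 bases next to the start are shown for the 4 members with the largest changes, in both directions, so that the sequences of genes that rose (Bid, Bcl2l11) can be read against those of genes that fell (Bcl2, Pmaip1). They lie at chr4:155808320-155808529 (minus strand) for Bid, chr3:135819832-135820041 (plus strand) for Bcl2l11, chr13:23366901-23367110 (minus strand) for Bcl2 and chr18:62255760-62255969 (plus strand) for Pmaip1. Each runs 5′ to 3′ toward the start. Capitals mark matches to the motifs searched.
Bid: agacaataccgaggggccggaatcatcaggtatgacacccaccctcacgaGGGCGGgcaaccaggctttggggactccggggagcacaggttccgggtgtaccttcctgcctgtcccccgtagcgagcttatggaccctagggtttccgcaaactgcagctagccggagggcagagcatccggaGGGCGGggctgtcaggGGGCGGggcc
Bcl2l11: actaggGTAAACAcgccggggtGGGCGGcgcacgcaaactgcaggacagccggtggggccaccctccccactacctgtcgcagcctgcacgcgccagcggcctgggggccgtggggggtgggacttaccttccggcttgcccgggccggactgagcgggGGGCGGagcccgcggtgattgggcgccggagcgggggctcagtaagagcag
Bcl2: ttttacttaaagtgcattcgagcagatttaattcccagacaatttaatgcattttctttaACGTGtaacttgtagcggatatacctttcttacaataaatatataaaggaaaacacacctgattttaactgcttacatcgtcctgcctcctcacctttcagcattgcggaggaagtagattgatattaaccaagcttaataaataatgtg
Pmaip1: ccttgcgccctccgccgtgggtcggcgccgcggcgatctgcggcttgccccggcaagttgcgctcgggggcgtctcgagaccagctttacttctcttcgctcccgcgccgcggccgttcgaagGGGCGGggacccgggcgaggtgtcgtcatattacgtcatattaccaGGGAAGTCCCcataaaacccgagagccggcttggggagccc

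The letters searched, on both strands, were GGGCGG (GC box), TGTTTAC (FOXO), ACGTG (hypoxia response element), CACGTG (E-box, which contains the former), TGANTCA (AP-1), TGACGTCA (CRE), GAAANNGAA (core of the interferon-stimulated response element), TTCNNNGAA (GAS), and the NF-κB and p53 half-site consensus sequences. The GC box occurred 3 times before Bid, 2 times before Bcl2l11 and 1 time each before Pmaip1 and Bak1, and 30.5% of all 33469 windows held it. The FOXO letters stood before Bcl2l11 and Bad, where 3.21% of all windows held them. The NF-κB consensus stood before Pmaip1, 41 to 32 bases ahead of the start, as against 3.54% of all windows. The ACGTG letters stood before Bcl2 and in 1 window of Bcl2l1 (16.6% of all windows), and the GAS letters before Bad and in 2 overlapping windows of Bcl2l1 (7.67%). The windows differed in base composition, with a GC content of 33.6% before Bcl2, 62.8% before Bid, 64.8% before Pmaip1 and 72% before Bcl2l11, and a median of 51.2% over all windows. No window of a member held the AP-1, CRE, E-box, p53 half-site or interferon core letters, which 6.34%, 1.59%, 5.59%, 6.64% and 8.12% of all windows held. A match describes letters and is not evidence that a factor binds there.

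Among the survival genes, Bcl2 encodes the founding member of the family, a membrane protein that binds BAX and the BH3-only proteins. Bcl2 lay at 5.49, 5.10 and 4.85 CPM in Vector libraries 1, 2 and 3 and at 1.82, 1.13 and 2.18 CPM in FTO-labelled libraries 1, 2 and 3. All 3 libraries labelled FTO were below all 3 Vector libraries, and library 2 was the lowest. These levels rest on few reads, 70 to 76 counts per Vector library and 15, 26 and 39 counts in the libraries labelled FTO. Bcl2 thus fell to 0.342 of its Vector level, a log2 fold change of -1.55 (SE 0.216, 95% interval -2.01 to -1.09; adjusted p = 1.4e-05, edgeR). Its size exceeded that of 88.5% of all genes tested.

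Leukocytes are cells in which BCL2 family survival genes are known to be expressed, and most of their markers measured here fell beside Bcl2. The macrophage gene Csf1r was at 142 CPM in Vector and 9.18 CPM in the libraries labelled FTO, while Adgre1, the 1 macrophage marker that rose, was at 6.81 and 31.7 CPM (log2 fold change 2.22, adjusted p = 8.4e-10, edgeR). In the same direction as Csf1r, the pan-leukocyte gene Ptprc, from a list of 8 lymphocyte genes, was at 55.0 and 15.1 CPM. Of those 8, 3 passed the filter and all 3 fell, the summed level being 87.5 to 88.0 CPM in Vector and 19.3 to 24.1 CPM in the other group. Besides Ptprc, those that fell were Cd4 and Cd8a. Cd4 had a mean of 28.6 CPM in Vector and 6.61 CPM in the libraries labelled FTO, and Cd8a of 4.15 and 0.195 CPM. The T and B cell genes Cd3e, Cd3d and Ms4a1 were at 0 counts in every library. The part of such cells in the fall of Bcl2 was not tested.

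BCL-XL, the product of Bcl2l1, guards mitochondria in many adherent cells. Bcl2l1 lay at 123, 119 and 115 CPM in the Vector libraries and at 98.6, 108 and 104 CPM in the libraries labelled FTO. The groups were close but did not overlap. Bcl2l1 was at 0.868 of its Vector level (95% interval 0.806 to 0.935), a log2 fold change of -0.20 (SE 0.0501; adjusted p = 0.00224, edgeR). It was not called when the test asked for a change beyond 1.2-fold (adjusted p = 0.874, glmTreat). A processed copy of the gene, Bcl2l1-ps1, has its own row with 0 to 4 counts per library, and how reads shared between the copies were counted is not given in the sources used here.

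The effectors BAX and BAK form the pores. Bax lay at 86.0, 84.1 and 94.5 CPM in Vector and at 79.5, 89.0 and 80.9 CPM in the libraries labelled FTO, and the groups overlapped. Its log2 fold change was -0.09 with a 95% interval of -0.22 to 0.04 (adjusted p = 0.220, edgeR). Without FTO-labelled library 2, the highest of the 3, the change was -0.13 (adjusted p = 0.0466). Bak1 lay at 67.9, 66.2 and 69.9 CPM in Vector and at 69.2, 69.8 and 68.2 CPM in the libraries labelled FTO. These 6 values overlapped within a narrow range, with a log2 fold change of 0.02 (95% interval -0.09 to 0.13, adjusted p = 0.715). A change of Bak1 beyond 0.941- to 1.10-fold lies outside that interval.

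Among the BH3-only members, Bid had the widest change. BID is a cytosolic protein that caspase-8 cleaves, and the cleaved form moves to mitochondria and links death receptors with BAX and BAK. Bid lay at 28.7, 26.3 and 29.6 CPM in Vector and at 83.1, 91.0 and 81.1 CPM in the libraries labelled FTO. All 3 of the latter stood far above every Vector library. Bid rose 3.02-fold, or 1.59 on the log2 scale (SE 0.067, 95% interval 1.45 to 1.74; adjusted p = 1.1e-11, edgeR), and its change exceeded that of 89.0% of all genes tested.

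Bcl2l11 encodes BIM, which is released from the dynein light chain and binds all survival proteins of the family. It lay at 18.5, 18.9 and 18 CPM in Vector and at 31.1, 28.5 and 30.4 CPM in the libraries labelled FTO, again with no overlap. Bcl2l11 rose 1.63-fold (95% interval 1.45 to 1.82), or 0.70 on the log2 scale (SE 0.0761; adjusted p = 9.5e-07, edgeR). Its size exceeded that of 71.8% of all genes tested.

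BAD binds BCL2 and BCL-XL and is held by 14-3-3 proteins when phosphorylated by survival kinases. Bad lay at 29.4, 27.2 and 30.8 CPM in Vector and at 32.4, 34.0 and 33.0 CPM in the libraries labelled FTO. The groups did not overlap, but the highest Vector library and the lowest of the others were close. Bad was called as 1.14-fold higher, a log2 fold change of 0.18 (SE 0.0711; adjusted p = 0.0330, edgeR). The call was lost with DESeq2 (adjusted p = 0.0877) and without any of 4 single libraries, Vector library 1 or 2 or FTO-labelled library 1 or 2 (adjusted p = 0.0597 to 0.166).

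NOXA, the product of Pmaip1, binds MCL1 in the main and is a known target of p53. Pmaip1 moved against the other BH3-only members. It lay at 44.6, 48.2 and 50.6 CPM in Vector and at 27.8, 23.5 and 26 CPM in the libraries labelled FTO, without overlap. Pmaip1 fell to 0.540 of its Vector level (95% interval 0.482 to 0.605), a log2 fold change of -0.89 (SE 0.0762; adjusted p = 6.4e-08, edgeR), larger than that of 77.8% of all genes tested.

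To read survival genes against effector genes within a library, the log2 ratio of their CPM was taken, a quantity in which library scaling cancels. As counts were not divided by transcript length, only differences between groups are read. The log2 ratio of Bcl2 to Bax was -4.10 ± 0.164 (SD, n = 3) in Vector and -5.65 ± 0.569 in the libraries labelled FTO, a difference of -1.55, and that of Bcl2 to Bak1 differed by -1.66. The groups did not overlap in either. The log2 ratio of Bcl2l1 to Bax was 0.43 ± 0.130 in Vector and 0.32 ± 0.0431 in the libraries labelled FTO, a difference of -0.12 with overlap, and that of Bcl2l1 to Bak1 differed by -0.23 without overlap. The ratio of Bcl2l11 to Bcl2l1, a BH3-only gene to a survival gene, was higher by 0.90 in the libraries labelled FTO, at -2.69 ± 0.0426 in Vector and -1.78 ± 0.129. This pair was added to the planned ratios of survival to effector genes. It does not stand for the BH3-only members as a whole, of which Bid and Bad also rose but Pmaip1 fell (log2 fold change -0.89). These ratios are given as descriptions and were not tested.

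**Figure D2:**
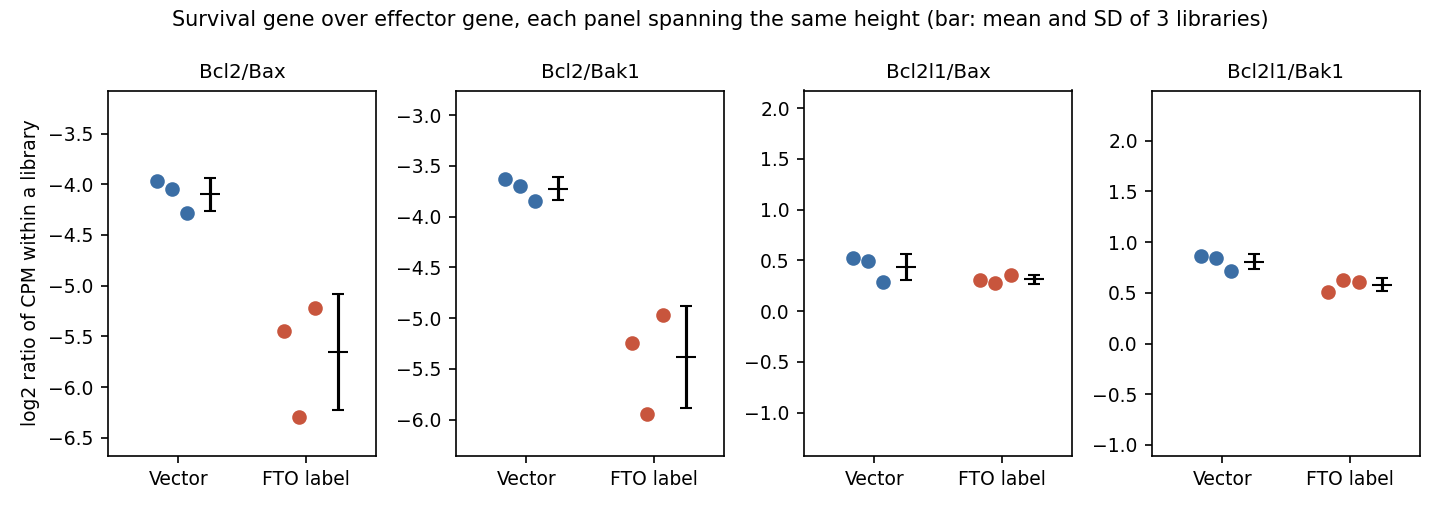
Log2 ratio of a survival gene to an effector gene within each library (y axis, all panels spanning the same height), with the mean and SD of 3 libraries as bars. The ratios with Bcl2 are lower in all 3 libraries labelled FTO, with differences of -1.55 (Bax) and -1.66 (Bak1), while those with Bcl2l1 differ by -0.12 and -0.23.

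Other members of the family were read in the same way, from a list of 13 symbols. Of these, 12 had a row and 9 passed the filter. Among the 9, 4 rose and 2 fell (66.7% called, near the 65.9% of all genes tested), with a median log2 fold change of 0.13. Bcl2l10, Bik and Bcl2l15 had a mean of at most 1.17 counts and were not tested, and Hrk is not analysed here. Bnip3, which encodes a mitophagy receptor of the outer membrane known for its induction by hypoxia, lay at 30.6, 29.3 and 32.2 CPM in Vector and at 101, 108 and 97.4 CPM in the libraries labelled FTO. All 3 of the latter stood far above Vector, and Bnip3 rose 3.33-fold, a log2 fold change of 1.73 (SE 0.0615, adjusted p = 1.3e-12, edgeR). Its relative Bnip3l rose by 0.54 on the log2 scale, from 140 ± 2.81 to 203 ± 4.67 CPM (SD, n = 3; adjusted p = 2.5e-08, edgeR).

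Bmf encodes a BH3-only protein that, like BIM, is held by a dynein light chain. It lay at 10.5, 9.80 and 11.8 CPM in Vector and at 3.79, 3.47 and 4.30 CPM in the libraries labelled FTO. The groups were well apart, and Bmf changed by -1.46 (SE 0.142, adjusted p = 2.9e-07, edgeR), in the opposite direction to Bcl2l11. Bok, which encodes an effector related to BAX, rose by 0.43 (18 ± 1.12 to 24.4 ± 2.98 CPM, SD, n = 3; adjusted p = 0.00129, edgeR). The survival gene Bcl2a1, known from leukocytes and as a target of NF-κB, fell by 0.46 on the log2 scale, from 14.7 ± 0.390 to 10.8 ± 2.15 CPM (adjusted p = 0.00585, edgeR). The change of Bcl2a1 was -0.30 without FTO-labelled library 3, and the call was lost with glmTreat against a 1.2-fold change (adjusted p = 0.0521). The part of the leukocyte markers given above, of which most fell and Adgre1 rose, was not tested.

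The survival gene Bcl2l2 did not pass the test (log2 fold change 0.11, 95% interval -0.01 to 0.23, adjusted p = 0.103, edgeR), nor did Bcl2l12 (0.07, adjusted p = 0.591) and Bcl2l13 (0.13, adjusted p = 0.188). Without FTO-labelled library 2, Bcl2l2 was called (0.15, adjusted p = 0.0257). Bcl2l14 was called as higher (1.30, adjusted p = 0.0167) on a mean of 10.3 counts per library. That call was lost with DESeq2 (adjusted p = 0.0624), without Vector library 3 (0.0761) and without FTO-labelled library 3 (0.146).

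**Figure D3:**
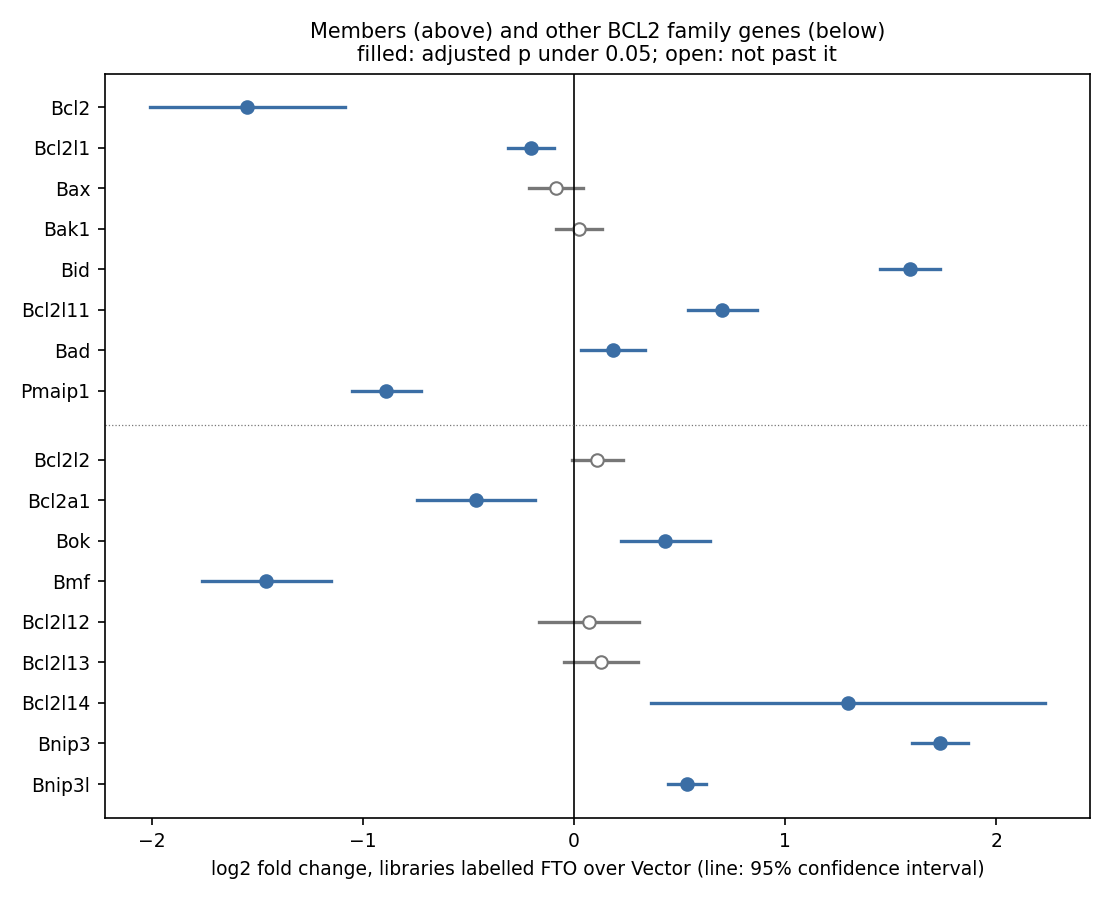
Log2 fold change (x axis, positive where the FTO-labelled group is higher) with its 95% confidence interval for the 8 members, above the dotted line, and 9 other family genes, below it. Filled points passed an adjusted p-value of 0.05. Bid (1.59) and Bnip3 (1.73) lie farthest right, and Bcl2 (-1.55) and Bmf (-1.46) farthest left.

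Downstream of the mitochondria, 16 of 17 listed genes of the apoptosome, the caspases and their inhibitors were tested. Of these, 10 rose and 4 fell (87.5% called, against 65.9% of all genes tested), with a median log2 fold change of 0.24. Cytochrome c (Cycs, 0.43) and Casp9 (0.30) were higher, while Apaf1, which encodes the scaffold of the apoptosome, fell from 67.4 ± 2.48 to 42.0 ± 3.89 CPM (log2 fold change -0.68, adjusted p = 4.2e-07, edgeR). Casp6 was among 4691 genes with 0 counts in every library. If reads could be assigned to it at all, that allows up to 0.168 to 0.227 CPM (3 counts per library). Among the inhibitors of apoptosis, Birc3, an inhibitor of apoptosis induced by NF-κB, lay at 7.68, 5.57 and 5.96 CPM in Vector and at 76.5, 71.4 and 80.9 CPM in the libraries labelled FTO, a 12.0-fold rise (log2 fold change 3.58, SE 0.0977, adjusted p = 5.3e-14, edgeR).

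Its relative Birc2 rose by 0.75 on the log2 scale and Birc5 (survivin), which also serves in mitosis, by 0.67. Birc6 and Dffa, which encodes the inhibitor of the caspase-activated DNase, were lower, with log2 fold changes of -0.60 and -0.29, the call of Dffa being lost with glmTreat against a 1.2-fold change (adjusted p = 0.288). Birc6 varied widely among the libraries labelled FTO (77.3 ± 22.7 CPM, against 118 ± 9.07 CPM in Vector). Genes that carry the signal on and genes that hold it back were both among those that rose.

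Upstream of Bid, 10 of 13 listed death receptor genes were tested, of which 5 rose and 2 fell, with a median log2 fold change of 0.25. That is 70% called, near the 65.9% of all genes tested. Cflar, which encodes the caspase-8 inhibitor c-FLIP, lay at 23.6, 21.2 and 23.8 CPM in Vector and at 65.9, 67.1 and 70.9 CPM in the libraries labelled FTO. Cflar thus rose 2.98-fold (log2 fold change 1.58, SE 0.0668, adjusted p = 1.2e-11, edgeR), next to the 3.02-fold rise of Bid, the substrate of caspase-8. Casp8 itself rose by 0.41, the adaptor Traf2 by 0.68 and the receptor Fas by 0.47 on the log2 scale. The receptor Tnfrsf10b (-0.45) and the adaptor Fadd (-0.47) were lower. Tnf had 0 counts in every library, and Faslg and Tnfsf10 had a mean of at most 1.67 counts.

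Of the 18 genes of the p53 pathway, all tested, 4 rose and 8 fell, and the median log2 fold change was -0.18. That is 66.7% called, near the 65.9% of all genes tested. Mdm4, which encodes an inhibitor of the pathway, fell from 36.8 ± 3.42 to 22.4 ± 1.33 CPM (log2 fold change -0.71, adjusted p = 2.1e-06, edgeR). Known targets of the pathway moved both ways. Gadd45a (0.93) and Btg2 (0.82) were higher, Sesn2 (-1.16) and, among the members, Pmaip1 (-0.89) were lower, and Cdkn1a (-0.02, adjusted p = 0.761) and Bax did not pass. Perp, singled out after its values were seen because it had the largest rise on this list (2.01), was measured from a mean of 98.8 counts.

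A last list held 28 genes that act on the member genes or proteins, of which 27 were tested. Of those tested, 10 rose and 10 fell (74.1% called, against 65.9% of all genes tested), and the median log2 fold change was -0.06. Ddit3, which encodes the stress factor CHOP, known to act on the Bim gene, rose from 32.5 ± 0.794 to 79.2 ± 6.49 CPM (log2 fold change 1.28, adjusted p = 1.8e-10, edgeR), whereas Atf4 (-0.70) and the pseudokinase gene Trib3 (-2.21) were lower. Foxo3, another known activator of Bim, rose by 0.30, and Foxo1 fell by 0.61 on the log2 scale. For Foxo3, FTO-labelled library 2 (36.8 CPM) lay close to the highest Vector library (36.1 CPM). Jun, whose product is an AP-1 factor, changed by -2.03, from 61.8 ± 2.03 to 15.1 ± 0.683 CPM.

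The listed genes for the turnover of MCL1 have opposite roles, so the sign of an RNA change is not the direction of turnover. Trim17, a ubiquitin ligase, rose 4.32-fold from 6.59 ± 0.359 to 28.5 ± 2.76 CPM (adjusted p = 9.4e-11, edgeR), the ligase gene March5 rose by 0.43, and Usp9x, whose product removes ubiquitin from MCL1, fell by 0.74 on the log2 scale. Huwe1 and Fbxw7, both ligase genes, did not pass (adjusted p = 0.105 and 0.12). The dynein light chain genes split, Dynll1 at -0.25 and Dynll2 at 0.17, both past the test, although the CPM of Dynll2 overlapped between the groups. Of the channel genes of the outer membrane, Vdac3 rose by 0.79 and Vdac2, whose product binds BAK, fell by 0.29 on the log2 scale, while Vdac1 did not pass (-0.03, adjusted p = 0.604). Hk2, a hexokinase that docks on the channel, rose from 61.2 ± 3.18 to 122 ± 6.40 CPM (adjusted p = 4.6e-10, edgeR).

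**Figure D4:**
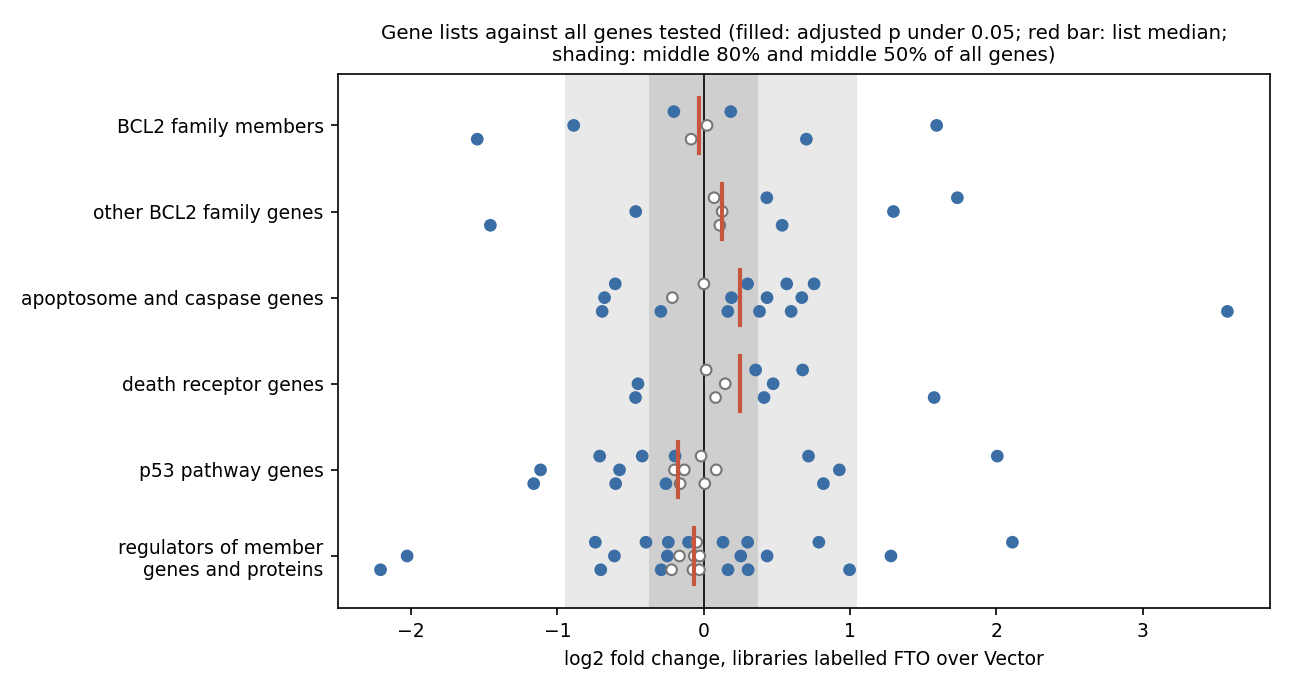
Log2 fold change (x axis) of each tested gene in the 6 lists, with the list median as a red bar and filled points for an adjusted p-value under 0.05. The shading spans the middle of all genes tested, from -0.94 to 1.04 (10th to 90th percentile) and from -0.36 to 0.36 (25th to 75th). The list medians run from -0.18 to 0.25, inside the inner band, and Bid, Bcl2, Birc3, Cflar and Trim17 are among the genes outside the outer one.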

How the data were processed

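RNA-seq of 6 NRCF libraries was analysed, 3 per group, grouped by the genotype labels. The values the authors deposited are raw counts, whole numbers for each gene symbol in a library. Per the labels, total RNA was used, and the submitters' processing notes name Trimmomatic and the build rn6. The aligner, counting program, annotation and use of strand are not given in the sources used here, so counts of genes with copies or overlapping neighbours are uncertain.

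Genes were kept with filterByExpr (minimum count 10), scaled by TMM and compared by the two-sided quasi-likelihood test of edgeR 4.0.16 in R 4.3.3 without a covariate. The Benjamini-Hochberg adjustment covered all 12941 tested genes. The SE came from the fold change and its F statistic. The procedure was tested on simulated data. Intervals cover replicate spread and counting error only.

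The members and gene lists were chosen with earlier results of these data known. Named genes were all members, Fto, the tested genes of the other family list and, per further list, up to 3 rises and 3 falls among called genes whose groups did not overlap and whose mean was at least 100 counts. Others were named after their values were seen, and some named by the rule are not reported here. Alternatives used DESeq2 1.42.0, limma-voom (limma 3.58.1), glmTreat, other scalings and filters, a replicate block, and each library left out. Within groups, libraries differed by more than sampling noise (chi-square over its degrees of freedom, 1.56 to 8.02).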

Additional observations from a re-analysis of the deposited data

How the results depend on the processing

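Each of 41 genes was followed through 14 alternatives. Of the 8 members, 5 (Bcl2, Bak1, Bcl2l11, Pmaip1 and Bid) kept their direction and call throughout. When the test asked for a change beyond 1.2-fold (glmTreat), Bcl2l1 (-0.20, adjusted p = 0.874) and Bad (0.18, adjusted p = 0.854) lost their calls, and the calls numbered 9 in place of 14 for the apoptosome and caspase genes, 11 in place of 20 for the regulators and 5668 in place of 8531 for all genes. With DESeq2, Bad was not called (0.18, adjusted p = 0.0877). With single libraries left out, the log2 fold change of Bad ran from 0.13 to 0.22 and that of Bax from -0.13 to -0.037. The members called then numbered 5 to 6, and all genes called 7902 to 8719. Bcl2, which rests on the fewest counts among the members, ran from -1.78 to -1.34. Why these values moved was not tested. Among the other 33 genes, 5 changed a call or sign, with 5 calls lost, 1 gained and 1 change of sign, that of Bcl2l12 (-0.057 without FTO-labelled library 2, and up to 0.14 without another library). Scaling by DESeq2 size factors or by library size alone changed no call of a member.

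The labels do not say whether libraries of the same replicate number were paired. Deviations from the group means correlated across the groups at -0.0869 to 0.0440 between libraries of the same number. Between libraries of different numbers they correlated at -0.131 to 0.122. So few pairs cannot settle whether the libraries were paired. With the replicate number as a block 6 members and 8399 of all genes were called. Depth limits Bcl2 and Bcl2l14, at means of 50.2 and 10.3 counts per library.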
